A study of Homo sapiens with 2 samples.

Results

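The transcripts described here are SRF, the gene of serum response factor, and 7 cytoskeletal genes known as targets of SRF and its cofactors of the MRTF family: TAGLN, TAGLN2, CNN2, ACTN1, VCL, TPM1 and TPM2. They were chosen by gene symbol as known targets, without a cut on their values but with earlier results of these data known. All 8 had a named probe and a value on both arrays, out of 11057 named genes with a value on at least 1 array, and together they had 11 of the 13395 probes with a gene symbol. The cells were 293T, an established human embryonic kidney cell line, grown in serum-containing medium. Cells exposed to 10 µM Y27632, a small molecule that inhibits ROCK1 and ROCK2, for 3 h or 6 h carried Cy3, and untreated cells with no agent, given a time of 0 h, carried Cy5. Each time had 1 dual-colour array and there was no dye swap. Time in culture, handling, vehicle and dye therefore cannot be told apart from the inhibitor. Whether 1 preparation of control RNA served both arrays is not in the labels, so their values may share it.

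The values are log ratios of the 2 channels, read as log2. The numerator of the ratio is not given in the sources used here, so a sign is that of the deposited value and no value is called a rise or a fall. If the ratio is treated over control, a negative value means less transcript in treated cells, and if it is control over treated, more. Without replicates there is no error between cultures and no test. The error available for a gene is the SD between probes of the same gene, which over 572 genes with several probes was 0.31 (3 h) and 0.33 (6 h). A size of 1 unit, a 2-fold difference, was used to count genes. Ratios hold no expression level, so the identity of the cells could not be checked from marker levels. Of the kidney lineage markers given further on, UMOD had no value on either array.

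SRF is a transcription factor that binds the CArG box, a short AT-rich element flanked by CC and GG. Its cofactors of the myocardin-related family, MRTFA and MRTFB, bind monomeric actin and are held out of the nucleus by it. When actin is driven into filaments, through formins and through ROCK acting on LIM kinase and cofilin, the cofactors are released and activate genes of the contractile and adhesive cytoskeleton. A separate set of SRF cofactors, the ternary complex factors of the ETS family, couples SRF to ERK signalling and the immediate early genes. The comparison asks whether transcripts of this programme differed after ROCK was blocked.

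Promoter sequences show which of these genes carry the SRF element close to an annotated start. RefSeq windows of 300 bases of GRCh38.p14, from 250 before to 50 after a transcript start, were searched for the CArG box, which reads the same way on both strands. Windows were given for 7 of the 8 genes, 14 windows in all, and TAGLN was not among them. A match was found in 3 of the 14 windows, against 1.29% of 35116 windows of all genes, and in 3 of 7 genes, against 1.60% of 27305 genes. Genes with more starts have more windows to match, and 5.02% of genes with 4 windows, the number ACTN1 has, held one. SRF had 2 boxes in the window of its first start, beginning at −30 and −10, CNN2 had 1 at −89, and ACTN1 had 1 at −171 of a start inside the gene. The 3 windows are shown because they place the element in members whose values follow, with CArG boxes in capitals.
SRF, chr6:43171019-43171318, plus strand: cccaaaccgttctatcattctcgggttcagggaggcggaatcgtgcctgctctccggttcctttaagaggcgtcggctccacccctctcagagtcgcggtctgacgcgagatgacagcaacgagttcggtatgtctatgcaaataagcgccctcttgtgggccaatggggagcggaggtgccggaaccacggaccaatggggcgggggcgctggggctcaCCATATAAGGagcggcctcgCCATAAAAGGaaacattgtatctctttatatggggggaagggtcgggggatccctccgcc
CNN2, chr19:1026358-1026657, plus strand: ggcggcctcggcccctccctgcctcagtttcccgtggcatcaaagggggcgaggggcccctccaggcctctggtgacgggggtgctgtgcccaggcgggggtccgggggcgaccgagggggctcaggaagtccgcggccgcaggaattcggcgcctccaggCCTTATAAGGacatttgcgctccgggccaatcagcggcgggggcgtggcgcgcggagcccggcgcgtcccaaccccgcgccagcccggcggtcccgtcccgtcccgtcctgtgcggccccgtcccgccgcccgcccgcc
ACTN1, chr14:68977517-68977816, minus strand: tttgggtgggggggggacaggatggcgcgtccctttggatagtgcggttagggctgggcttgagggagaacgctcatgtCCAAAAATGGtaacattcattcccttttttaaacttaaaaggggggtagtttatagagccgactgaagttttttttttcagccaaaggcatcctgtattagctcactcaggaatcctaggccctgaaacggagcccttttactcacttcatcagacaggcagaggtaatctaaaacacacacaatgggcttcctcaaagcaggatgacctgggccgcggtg

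No match was found in the windows of TAGLN2, VCL, TPM1 and TPM2, nor in the other windows of SRF and ACTN1, which says only that these letters are not in these stretches. The element CATTCC, a binding motif of the TEAD factors that partner YAP, was found on either strand in 2 of the 14 windows, those of VCL and of the ACTN1 start with the CArG box. It was present in 14.0% of all windows. In neither case did it overlap a CArG box.

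**Figure D1:**
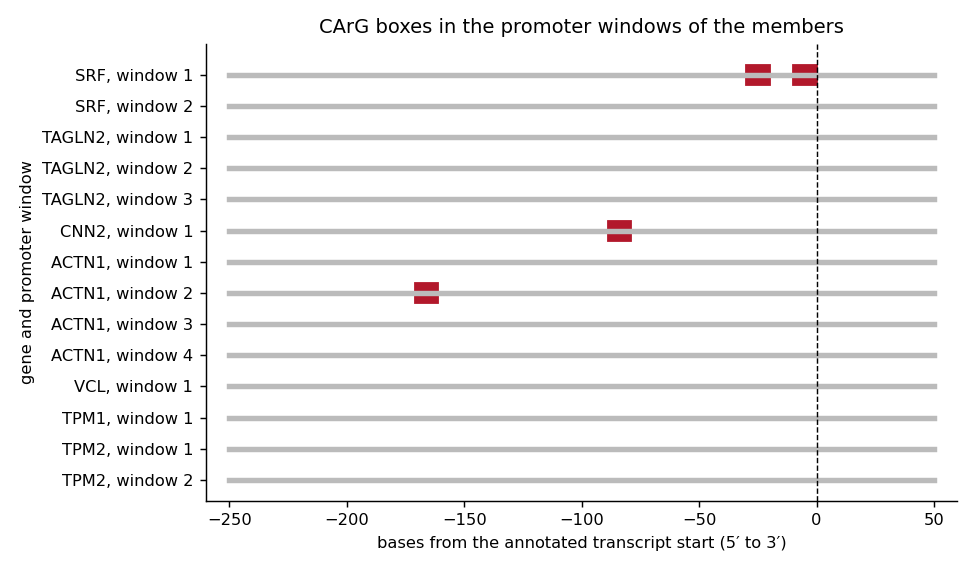
Positions of CArG boxes (red) in the 14 promoter windows of 7 genes, in bases from the annotated transcript start (dashed line), 5′ to 3′. Boxes lie in 3 windows, of SRF (2 boxes), CNN2 and ACTN1.

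None of the 8 genes reached the size of 1 unit on either array. The share of all named genes past it was 1.61% at 3 h and 1.43% at 6 h, so a count of 0 among 8 is near the background. At 3 h, 5 of the 8 had negative values, against 47.5% of all genes, and their median was −0.13 beside 0.02 over all genes. At 6 h the same number were negative, against 47.3%, and the median was −0.10 beside 0.02. The members were no farther from 0 than genes in general, with a median size of 0.21 at 3 h, equal to that of all genes, and 0.14 at 6 h, where that of all genes was 0.22. TAGLN alone lay farther from 0 than the SD between single probes, at each time. Of all genes, 33.0% did at 3 h and 30.4% at 6 h. The values of TPM1 and TPM2 are means over 3 and 2 probes, for which this SD is too wide. The SD of its own probes, divided by the root of their number, was 0.24 for TPM1 at 3 h, below its value of 0.29. At 6 h it was 0.27, above the value of 0.14. For TPM2 this error exceeded the value at both times.

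SRF itself (probe H200014058) had a log ratio of 0.12 at 3 h and 0.15 at 6 h. Both values were positive and well inside the probe SD, and 71.8% and 65.7% of all genes lay as far from 0 or farther. SRF is also known as a target of its own product. Its value and those of the single-probe targets had opposite signs on both arrays.

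TAGLN encodes transgelin, also called SM22, an actin-binding protein of the calponin family used as a marker of smooth muscle and of MRTF activity. Its probe (H200006195) had −0.42 at 3 h, followed by −0.40 at 6 h, a 1.34-fold and a 1.32-fold difference. TAGLN was the lowest of the 8 on both arrays. It exceeded the probe SD by a small margin, and 8.71% of all genes at 3 h and 9.97% at 6 h had values as low or lower. TAGLN2, the more broadly expressed transgelin, had −0.10 and −0.15 (probe H200006181), within the probe SD. CNN2, calponin 2, which binds actin filaments and restrains myosin ATPase activity, had −0.22 and −0.15 (probe opHsV0400006851), also within it. All 3 members of this family were negative at both times, with 1 probe each.

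ACTN1 and VCL encode proteins that tie actin filaments to adhesions. ACTN1, alpha-actinin 1, a crosslinker of filaments, had −0.16 at 3 h and −0.12 at 6 h (probe H200012175). VCL, vinculin, which links talin to actin where adhesions are under tension, had −0.20 and −0.08 (probe H200006081). Both genes were negative on both arrays and nearer to 0 at 6 h, by 0.04 for ACTN1 and 0.12 for VCL. As many as 62.2% and 53.5% of all genes at 3 h lay at least as far from 0 as ACTN1 and VCL, and 72.5% and 81.7% at 6 h.

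TPM1 and TPM2 encode tropomyosins, coiled-coil proteins that run along the actin filament and govern access of myosin, and both genes are spliced into several isoforms. They were the members with several probes, and in both genes the probes differed in sign. For TPM1, probe opHsV0400001096 had 0.64 at 3 h and 0.50 at 6 h, and probe H300022133 had 0.40 and 0.30. The remaining probe, opHsV0400002878, had −0.18 and −0.39. The mean of 0.29 at 3 h and 0.14 at 6 h therefore averages probes that lie on both sides of 0, with an SD of 0.42 and 0.47 over 3 probes. All 3 probes were lower at 6 h than at 3 h.

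For TPM2, probe H200009924 had 0.69 at 3 h and 0.24 at 6 h, while probe opHsV0400005727 had −0.12 and −0.13. Their mean was 0.29 at 3 h and 0.06 at 6 h, with an SD of 0.57 and 0.26. The gap of 0.81 between the TPM2 probes at 3 h was matched or exceeded by 28 of 496 genes with 2 probes (5.60%), and the gap of 0.37 at 6 h by 38.9% of them. Among 65 genes with 3 probes, 16.9% had a range as wide as that of TPM1 at each time. Probes of differing sign were common in general, in 40.7% of 572 genes at 3 h and 45.1% at 6 h. The probe sequences were not used here, so which isoforms the probes detect, or whether they also detect related tropomyosins, was not tested.

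**Figure D2:**
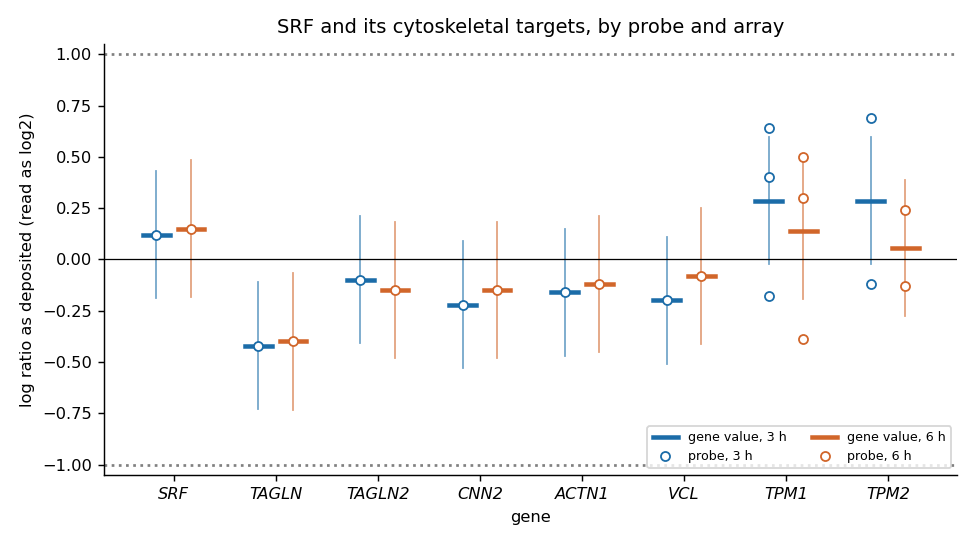
Log ratio (vertical axis, as deposited, read as log2) of the 8 genes at 3 h (blue) and 6 h (orange). Open circles are probes, thick bars are gene values (the mean over probes), thin lines span 1 within-gene probe SD (0.31 and 0.33) to each side, and dotted lines mark 1 unit; TPM1 and TPM2 have probes on both sides of 0.

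In order of value at 3 h, TAGLN was followed by CNN2, VCL, ACTN1, TAGLN2, SRF, TPM2 and TPM1. The largest gaps between neighbours were 0.22, from TAGLN2 to SRF, and 0.20, from TAGLN to CNN2. The SD of a difference between 2 single probes is 0.44 at 3 h, so no neighbours in this order were apart beyond it. The whole range, from TAGLN to TPM1, was 0.71. At 6 h the order was TAGLN, then TAGLN2 and CNN2 at the same value, ACTN1, VCL, TPM2, TPM1 and SRF. The range was 0.55, and the widest gap, between TAGLN and TAGLN2 or CNN2, was 0.25, within the SD of 0.47 for a difference.

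**Figure D3:**
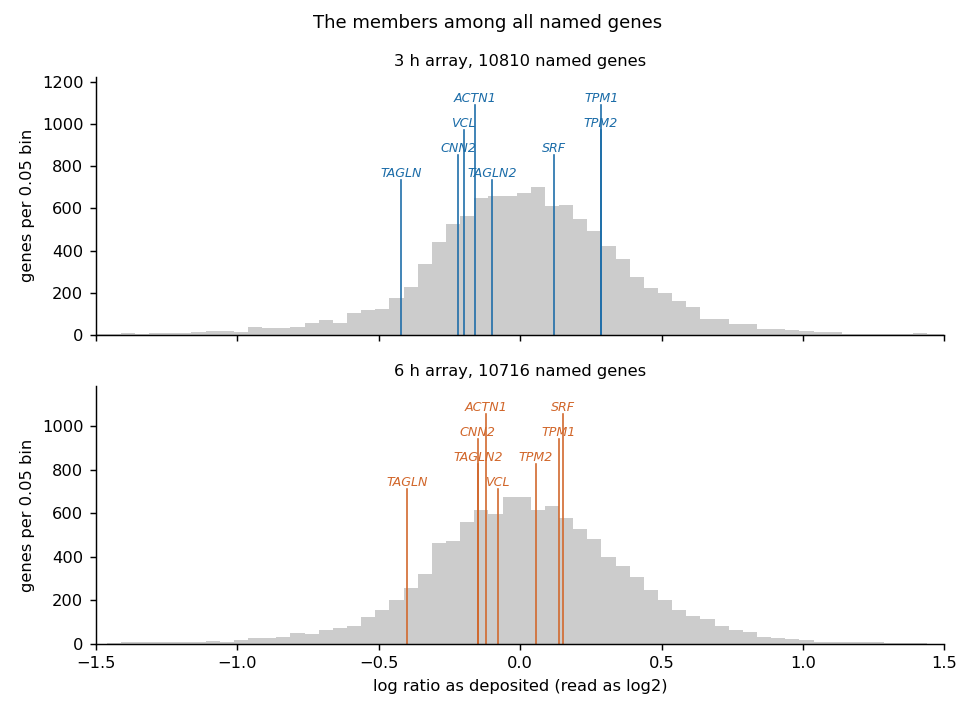
Number of named genes per bin of log ratio (grey; horizontal axis as deposited, read as log2, cropped at 1.5 to each side) at 3 h (10810 genes) and 6 h (10716 genes), with the 8 genes as coloured lines whose heights serve only to place the names. All 8 lie within the bulk of the distribution, and TAGLN, at −0.42 and −0.40, is nearest its negative edge.

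The values of the 8 genes differed little between the arrays. The difference, 6 h minus 3 h, ranged from −0.23 for TPM2 and −0.15 for TPM1 to 0.12 for VCL, with a median of 0.03. Over all 10469 genes with both values its median was −0.01 and its SD 0.29. The median size of the difference was 0.06 over the 8 genes and 0.13 over all genes. No member reached 1 unit in this difference, which 1.20% of all genes did. None exceeded the probe SD of the difference, 0.30, which 19.9% of all genes did. That SD is again for a single probe, while TPM1 and TPM2 are means over several. No member changed sign between the arrays, which 20.8% of all genes did, so for 8 genes this is not far from the background. Since each time is a single array, time cannot be told apart from array.

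Other genes of the pathway were read from lists of known members, each counted without the 8 genes. Their counts by sign stand beside 47.5% of all genes negative at 3 h and 47.3% at 6 h. The lists overlap, since FHL2, ZYX, TPM3, LMOD1 and CNN1 are each on more than 1. So are MICAL2, TPM4, ACTA2 and ACTG2, which lack a named probe. Of 25 regulators of SRF, 19 had a value at 3 h and 17 at 6 h, with medians of 0.08 and 0.05. At 3 h 11 were positive and 8 negative, and at 6 h 10 and 7. The cofactor MRTFA had −0.30 and −0.18, and MRTFB had −1 at 3 h from 1 of its 2 probes and no value at 6 h. MRTFB was the 1 regulator at −1 or less at 3 h, where 0.953% of all genes were. Past 1 unit at 3 h, with either sign, were 1.61% of all genes but 1.36% of those with values on both arrays. Genes without a 6 h value, as MRTFB, thus passed it more often. The ternary complex factors were split. ELK4 had 0.87 and 0.49, ELK1 −0.05 and −0.24, and ELK3 −0.81 at 3 h with no value at 6 h. MYOCD, the cofactor of muscle, and SCAI, a repressor of MRTF, had no value on either array.

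Upstream of the cofactors, DIAPH2, a formin that nucleates actin filaments, had 1.01 at 3 h and 0.77 at 6 h. It was the 1 regulator at 1 or more, which 0.657% of all genes reached at 3 h. The formins DIAPH3 and DIAPH1 had 0.38 and −0.06 at 3 h, then 0.33 and −0.26 at 6 h. ARHGEF12, a guanine nucleotide exchange factor, had 0.48 and 0.92, whereas the related ARHGEF11 had −0.16 and −0.02. The listed regulator RHOC had 0.10 at 3 h and 0.05 at 6 h. The kinases LIMK1 and LIMK2, which inactivate cofilin, had −0.09 and −0.14 at 3 h, then −0.04 and −0.17 at 6 h. CFL1, cofilin, had 0.05 and −0.10, and PFN1, profilin, 0.08 and 0.01. XPO1, the exportin that carries MRTF out of the nucleus, had 0.55 and 0.38. The drug's target genes ROCK1 and ROCK2 had 0.14 and 0.39 at 3 h, then 0.41 and 0.38 at 6 h. No regulator reached 1 unit at 6 h.

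Of 33 other cytoskeletal targets of SRF and MRTF, 17 had a value at each time. The actin genes ACTA1, ACTA2, ACTB, ACTC1, ACTG1 and ACTG2 lacked a probe named in the platform annotation, and CNN1 had a probe but no value. The medians were −0.09 and −0.07, with 10 of 17 negative at 3 h and 11 of 17 at 6 h, and none reached 1 unit. CCN1 and CCN2, matricellular proteins that are also YAP targets, were farthest from 0 in mean size, with 0.41 and 0.55 at 3 h, then 0.54 and 0.31 at 6 h. MYL9, the regulatory light chain of myosin that ROCK signalling phosphorylates, had −0.16 and −0.63. TES, a LIM protein of focal adhesions, had 0.44 and 0.31, and FHL2, a LIM protein induced by MRTF, 0.40 and 0.23. The targets therefore lay on both sides of 0 at each time.

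Several of these targets and of the genes described below carry a CArG box in their windows, shown here for comparison with SRF, CNN2 and ACTN1 and with the box in capitals. They were chosen by sequence, after their values were seen, and each is printed with up to 10 bases to each side.
FLNA, chrX:154374709-154374738, minus strand: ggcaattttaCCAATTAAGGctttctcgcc
FHL2, first start, chr2:105438595-105438624, minus strand: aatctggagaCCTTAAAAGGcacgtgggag
FHL2, internal start, chr2:105399091-105399120, minus strand: gcgtgcatctCCTTATATGGtcaaatgaca
TES, chr7:116222703-116222730, plus strand: acacaagaCCAAATTAGGaatggttgcc
TGFB1I1, chr16:31473144-31473173, plus strand: tggaggggagCCAAATTTGGcttgggtgaa
LPP, chr3:188212519-188212548, plus strand: gcctgcttctCCATATTTGGaaatgtttac
SMTN, chr22:31084942-31084971, plus strand: cggggccgggCCATATAAGGaaaagctagg
EGR1, upstream site, chr5:138465364-138465393, plus strand: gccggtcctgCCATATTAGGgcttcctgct
EGR1, downstream site, chr5:138465386-138465415, plus strand: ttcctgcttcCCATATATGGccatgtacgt
Genes with these boxes lay on both sides of 0. FLNA, the filament crosslinker filamin A, had −0.23 at 3 h and −0.19 at 6 h, and TGFB1I1, a paxillin-related adaptor also called Hic-5, had −0.09 and −0.15, beside the positive TES and FHL2. LPP, a zyxin-family protein of adhesions, had −0.45 and −0.64, and SMTN, smoothelin, −0.33 and −0.22. ROCK2 and the immediate early gene EGR2 also carry a box, not printed here, beginning at −73 and −71. ROCK2 had 0.39 at 3 h and 0.38 at 6 h, and EGR2 −0.14 and 0.12.

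Over the whole array, 160 genes with a CArG box in a window had a value, 153 on each array and 146 on both. At 3 h 74 of 153 were negative (48.4%), against 46.0% of 8527 genes with windows and no box, and the medians were 0.01 and 0.03. At 6 h 78 of 153, not all the same genes, were negative (51.0%), against 45.7% of 8461, with medians of −0.02 and 0.03. At 3 h 6 of the genes with a box lay at least 1 unit from 0 (3.92%), 2 positive and 4 negative, against 1.40% of genes without one. At 6 h 1 did (0.654%), against 1.41%. Among the 146 genes with both values, 5 were past this size at 3 h (3.42%) and 0 at 6 h, against 1.18% and 1.26% of 8276 genes without a box. The share past the size was thus above that of the other genes at 3 h and below it at 6 h, on a few genes, and no test of either difference was made.

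**Figure D4:**
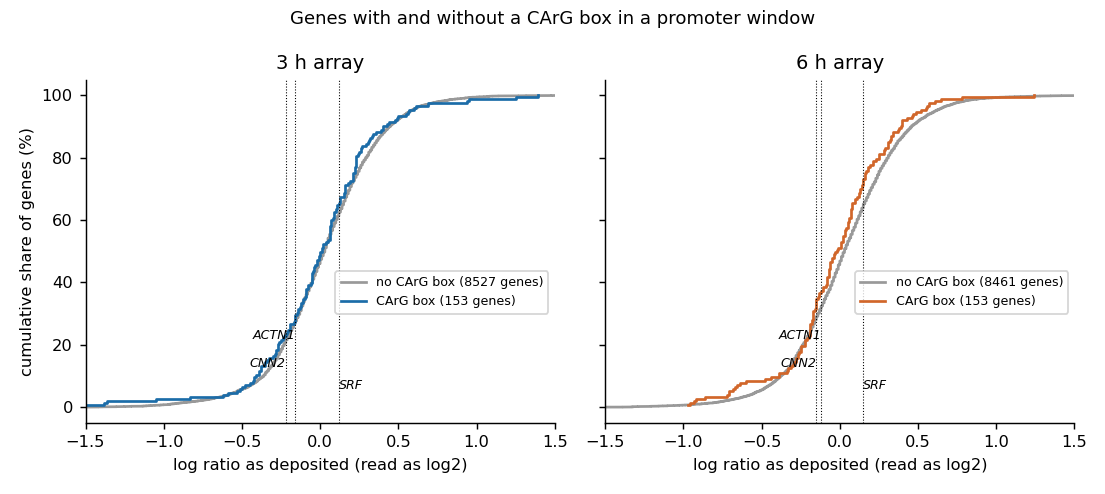
Cumulative share of genes (vertical axis, %) against log ratio (horizontal axis, as deposited, read as log2, cropped at 1.5 to each side) for genes with a CArG box in a promoter window (coloured, 153 genes on each array) and without one (grey, 8527 genes at 3 h and 8461 at 6 h). Dotted lines mark CNN2, ACTN1 and SRF; the curves lie close together, with medians of 0.01 and 0.03 at 3 h and −0.02 and 0.03 at 6 h.

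Of the SRF targets that answer to ternary complex factors, the immediate early genes, 11 of 12 were measured. At each time 9 of 11 were negative, against 47.5% of all genes at 3 h and 47.3% at 6 h. The medians of the 11 were −0.14 at 3 h and −0.24 at 6 h, and none reached 1 unit on either array. FOS, an AP-1 subunit, had −0.87 and −0.75, IER2 had −0.55 and −0.46, and MCL1, a survival factor of the BCL2 family, had 0.37 and 0.48. EGR1, a zinc finger factor with 2 CArG boxes in its window, had 0.43 at 3 h and −0.68 at 6 h. SRF, which drives both sets, had 0.12 and 0.15 beside them.

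Of the listed relatives of the 8 genes and of tropomyosin-associated proteins, 13 had a value, 6 positive and 7 negative at 3 h, and 3 positive and 10 negative at 6 h. The 3 positive at 6 h were the tropomodulins, and 47.3% of all genes were negative at that time. In the transgelin and calponin family, TAGLN3 had 0.28 at 3 h and −0.25 at 6 h, and CNN3 had −0.03 at both times. The alpha-actinins ACTN4 and ACTN2 had −0.19 and 0.36 at 3 h, then −0.09 and −0.04 at 6 h, beside −0.16 and −0.12 for ACTN1. CTNNA1, alpha-catenin, the relative of vinculin at cell junctions, had −0.01 and −0.03. TPM3, a further tropomyosin, had means of −0.02 and −0.29 over 3 probes that ranged from −0.22 to 0.10 at 3 h and from −0.55 to −0.01 at 6 h. The tropomodulins cap the slow-growing end of filaments coated with tropomyosin. Their 3 measured genes were positive at both times, with TMOD1 at 0.64 and 0.55, TMOD4 at 0.44 and 0.74, and TMOD3 at 0.31 and 0.32.

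The MEF2 genes encode the other MADS-box factors related to SRF. MEF2A had −0.28 and −0.42, MEF2D −0.41 and −0.23, MEF2B −0.22 and −0.14, and MEF2C 0.03 and −0.24, whereas SRF was positive at both times. Over all 13 measured of 20 listed relatives the medians were −0.01 at 3 h and −0.09 at 6 h, and none reached 1 unit.

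Partners of vinculin and alpha-actinin at adhesions had medians of 0.00 and −0.08 over 11 of 20 listed genes, and none reached 1 unit. At 3 h 5 were negative and at 6 h 7. LPP was the lowest at both times. ILK, the integrin-linked pseudokinase, had 0.46 on each array, and its partner LIMS1, or PINCH1, had −0.18 and −0.51. PXN, the adaptor paxillin, had −0.25 and −0.26 over 2 probes. The genes for talin had no named probe.

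Markers of other cell types were read beside these values, since TAGLN and the tropomyosins are also genes of muscle. Of 15 muscle markers, 9 had a value at 3 h and 10 at 6 h, 7 and 6 of them negative, with values from −0.58 to 0.35 and from −0.85 to 0.71 and medians of −0.28 and −0.06. CKM, muscle creatine kinase, had −0.58 and −0.51, and MYH7, a myosin heavy chain of slow muscle, −0.28 and −0.85. MYOG, a myogenic factor, had 0.71 at 6 h with no value at 3 h, and MYH11 and CNN1, which define smooth muscle, had no value on either array. All 6 measured endothelial markers of 8 listed were negative at both times, where 47.5% and 47.3% of all genes were. The 6 ran from −0.72 to −0.11 at 3 h and from −0.55 to −0.22 at 6 h, with medians of −0.26 and −0.40. CDH5 was at −0.72 and −0.55, KDR at −0.46 and −0.42, PECAM1 at −0.11 and −0.54 and ESAM at −0.31 and −0.38. Of 6 measured kidney lineage markers 5 were negative at 3 h and 4 at 6 h, with medians of −0.41 and −0.10. Among them LHX1 had −0.51 and −0.45, SLC12A1 −0.30 and −0.71, AQP1 −0.50 and 0.41, and CDH16 −0.44 and 0.18. Negative values of the size of that of TAGLN thus also occurred among genes of other tissues, and the part of whatever these lists share in the value of TAGLN was not tested.

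**Figure D5:**
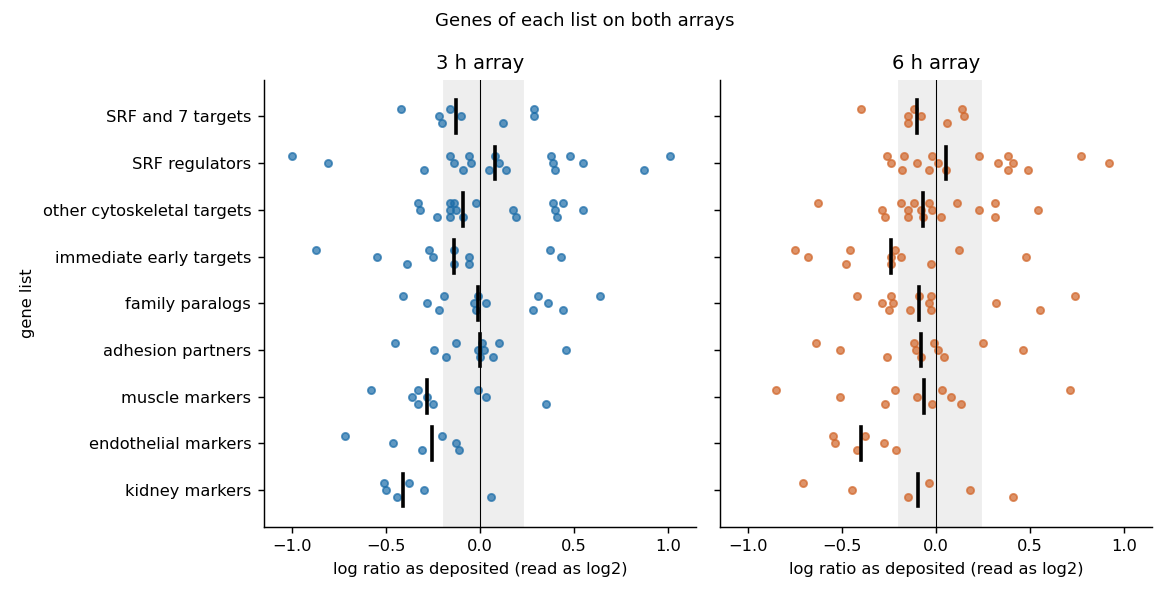
Log ratio (horizontal axis, as deposited, read as log2) of the genes of each list at 3 h (left) and 6 h (right). Points are genes, black bars are medians and the grey band runs from the lower to the upper quartile of all named genes, with the 8 genes at the top at medians of −0.13 and −0.10 and the endothelial markers at −0.26 and −0.40.

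The pair of values of each gene gives little to single it out. Within 0.1 of TAGLN on both arrays lay 226 of 10468 genes (2.16%), and within 0.1 of SRF 1082 (10.3%). Nearest to TAGLN by Euclidean distance over both arrays were HNRNPC and LIMS2, with the same values, then SLC4A11, BCL6 and TNNC2, at distances of 0.01. For SRF 6 genes had identical values. With provisional symbols left out, such as those starting with LOC, FLJ or KIAA, FBXO34, NOC4, PKN2, TMEM59 and UBE2Q1 come first in alphabetical order. The genes nearest to TAGLN were named in the same way, while the counts hold all genes. Likeness over 2 values rests on very little.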

How the data were processed

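Gene expression in 293T cells was measured on 2 dual-colour oligonucleotide arrays, 1 per time. The authors deposited 1 log value per probe and array for 24267 probes, read here as log2 ratios of the channels; 20503 probes had a value at 3 h and 20337 had one at 6 h. Not given in the sources used here are the background correction, normalization, spot filter, log base and numerator. Base 10 would make 1 SD across genes at 3 h 2.27-fold, base 2 makes it 1.28-fold, and natural logarithms, 1.43-fold, remain possible. No spot intensities were used here.

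The platform annotation gave 1 symbol for 13395 probes, none for 10872 and several for 0. Of these, the RefSeq table of GRCh38.p14 held 10822 as current symbols, 2446 were replaced by the gene of which they are the sole synonym, and 127 stayed as listed. Probes of a gene were averaged in Python 3.11.15 with pandas 2.3.3. Counting and probe averaging were tested on simulated data.

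Members and lists were chosen with earlier results of these data known. Named genes were the 8 members, every measured SRF regulator and family relative, and in each other list the 4 of largest mean size and any at 1 unit or more. The 5 genes nearest to TAGLN and to SRF were added. The promoter searches and the genes named from them were chosen after the values were seen. With 1 array per time no test was made.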

Additional observations from a re-analysis of the deposited data

Results flagged for a closer look

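No member was singled out, and all 8 had 1 sign at both times. Over all 10469 genes 20.8% had opposite signs, so a count of 0 among 8 is not far from that share. Of 71 genes given by the naming rule and with both values, 7 had opposite signs at 3 h and 6 h. EGR2, named only for its CArG box, was not counted among them. None of these differences was tested, since each time has 1 array, and some values lay near 0. The difference, 6 h minus 3 h, was −1.11 for EGR1, 0.91 for AQP1, 0.62 for CDH16, −0.53 for TAGLN3, −0.40 for ACTN2, −0.27 for MEF2C and −0.15 for CFL1. For ACTN2 the value at 6 h was −0.04, for MEF2C that at 3 h was 0.03, and for CFL1 both lay within 0.1 of 0.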

How the results depend on the processing

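The medians of the 8 genes kept their sign under every alternative tried, though most of these could hardly have changed it. They lay between −0.18 and −0.13 at 3 h and between −0.14 and −0.10 at 6 h with the probe farthest from 0, the median probe, centring on the median gene, or without TPM1 and TPM2, the last chosen after seeing the data. Their difference lay between 0.03 and 0.04. The genes in the middle of the order had 1 probe each, and the probe choices tried kept TPM1 and TPM2 positive. The medians therefore stayed at −0.13 and −0.10. Both tropomyosin genes also have a probe that is negative at both times, and taking those probes was not tried. Leaving out TPM1 and TPM2, whose means were positive at both times, could only lower the medians at 3 h and 6 h. With the probe farthest from 0, TPM1 moved to 0.64 at 3 h and 0.50 at 6 h and TPM2 to 0.69 at 3 h. Read as log10, 1 member, TAGLN, passed 2-fold at 3 h and 1 at 6 h, and none did read as natural logarithms or at 1.5-fold. The share of all genes past the size was 9.36% at 3 h and 9.86% at 6 h at 1.5-fold, 5.86% and 5.97% with natural logarithms, and 33.1% and 34.9% with log10. Turning the sign of the ratio would exchange positive and negative throughout. No paired analysis was possible because each time has 1 array. Precision is limited throughout by there being 2 arrays.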
